A study of Mus musculus with 8 samples.

Results

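The genes described here cut, protect and crosslink the extracellular matrix of fat: matrix metalloproteinases (Mmp), their tissue inhibitors (Timp), lysyl oxidases (Lox and Lox-like) and secreted metalloproteinases with thrombospondin repeats (Adamts). They were chosen by symbol and a count minimum, as the genes of these 4 families with at least 10 counts summed over 8 libraries. Mmp12 was left out by name. The choice was made with earlier results of these data known. Of 50 symbols with a matching name, 44 met the minimum, out of 23212 genes counted: 17 Mmp, 4 Timp, 5 lysyl oxidase and 18 Adamts genes. Of the 6 that did not, Mmp1a and Mmp1b had 0 counts in all libraries, and Mmp10, Mmp20, Mmp21 and Adamts13 had 1 to 3 counts in all. The member nearest to the minimum was Mmp8, with 16 counts.

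RNA came from whole perigonadal fat of C57BL/6 mice, 4 of them wild type and 4 carrying a gene knockout specific to adipocytes. Both genotypes were 20 weeks old, matched in age and weight, and had eaten a diet with 45% fat for 12 weeks from the age of 8 weeks. The Cre line or other driver of the knockout is not given in the sources used here, and the other cells of the tissue, which make many of these enzymes, are not targeted by it according to its name. Each library was 1 mouse, numbered 1 to 4 within its genotype, so the tests measure the spread between these mice.

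Matrix metalloproteinases are zinc enzymes made as inactive precursors, and TIMP proteins bind and block their active site. Adamts enzymes cut proteoglycans such as versican and aggrecan or trim the ends of procollagens, and lysyl oxidases oxidise lysines so that collagen and elastin become crosslinked. In obese fat this machinery reshapes the matrix around enlarging adipocytes, and fibroblasts, endothelial cells, macrophages and adipocytes all contribute to it. In whole tissue, fewer cells of a type and less RNA per cell cannot be told apart.

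Library totals were 46444435 to 51431956 counts, and 40 of the 44 genes had enough counts to be tested. Levels are CPM, counts scaled to library size. Of the defining markers, those of adipocytes summed to 38629 to 55265 CPM over 8 genes, of macrophages to 411 to 2092 CPM over 9 genes, of fibroblasts and progenitors to 1861 to 4587 CPM over 8 genes and of mesothelium to 118 to 996 CPM over 6 genes, and none was at 0 throughout. Smooth muscle and pericyte markers, 6 genes, summed to 346 to 789 CPM in wild type and 287 to 338 CPM in knockout without overlap. The contractile actin gene Acta2 was at 149.8 to 605 and 107 to 135 CPM (log2 fold change -1.23, SE 0.41, unadjusted p = 0.0152 and adjusted p = 1.00 in edgeR). Acta2 was the 1 marker of the 6 whose genotypes did not overlap, where 1.44% of all genes did not. Cspg4 lay above 0 in log2 fold change (0.31, SE 0.19) and Notch3 near 0 (-0.060, SE 0.49). Wild-type mouse 3 and knockout mouse 2 stood apart from the other 6 in some genes of ciliated and epididymal epithelium. The keratin genes Krt8 and Krt18 of that list did not separate this pair. Values are given beside Mmp7.

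A cluster of Mmp genes lies on chromosome 9, from 7272514 to 7699416 in the deposited mm10 annotation. Mmp12, which is not in the set, also lies there and had a mean of 108 CPM. Without it, the cluster holds 9 of the 50 symbols and 5 of the 44 genes: Mmp13, Mmp3, Mmp8, Mmp27 and Mmp7. The sequences just upstream of 3 of these are shown, chosen because they hold both an AP-1 and a TATA box sequence. The expression of these 3 differed: Mmp7 was abundant in a pair of mice and nearly silent in the rest. Mmp3 and Mmp13 were low in all. Capitals mark the AP-1 sequence TGAGTCA, or TGACTCA on the other strand, and the TATA box sequence TATAAA. Each run is the 130 bases before the RefSeq start (GRCm38.p6, forward strand), at chr9:7691960-7692089 for Mmp7, chr9:7445692-7445821 for Mmp3 and chr9:7272384-7272513 for Mmp13.
Mmp7: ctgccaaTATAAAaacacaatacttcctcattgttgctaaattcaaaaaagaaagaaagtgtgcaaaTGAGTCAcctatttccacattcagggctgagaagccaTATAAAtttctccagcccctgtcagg
Mmp3: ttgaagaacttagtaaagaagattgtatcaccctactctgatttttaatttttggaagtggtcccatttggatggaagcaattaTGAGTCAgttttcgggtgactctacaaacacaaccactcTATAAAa
Mmp13: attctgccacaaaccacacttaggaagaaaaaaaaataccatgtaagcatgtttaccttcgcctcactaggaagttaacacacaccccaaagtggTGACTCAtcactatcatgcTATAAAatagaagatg

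AP-1 is the dimer of Fos and Jun proteins, and its sequence lay 63, 46 and 35 bases before the start of Mmp7, Mmp3 and Mmp13. Entries in the RefSeq promoter table were used for 26 of the 44 genes, and the 250 bases before each start were searched on both strands. Lox and Adamts19, on chromosome 18, were not looked up. The entry used for Adamts9 starts 42093 bases from the deposited start of that gene. The AP-1 sequence was in 3 of the 26, the genes printed above, and the TATA box sequence in 4, those and Adamts1. Of 27025 genes in the table, 4.43% held the AP-1 sequence, 13% the TATA box sequence and 0.788% both. Mmp10, Mmp1a and Mmp1b of the same cluster also held both, and were at 0 to 2 counts per library. Mmp8 and Mmp27, also of that cluster and low, held neither. The GC box sequence GGGCGG, in 32.9% of all genes, was in 17 of the 26, among them Timp1, Timp2, Timp3, Mmp14 and Adamts2. A match of letters does not show that a factor binds there.

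Timp4, Timp3, Timp2 and Adamts5 were the most abundant genes of the set per length of exon, while the fourth inhibitor, Timp1, was at 9.61 CPM per kilobase. Timp4 led with a mean of 386 CPM per kilobase and exceeded Timp3 in 8 of 8 mice. Timp3, at 118 CPM per kilobase, and Timp2, at 114, could not be ordered, since Timp3 was the higher in 2 of 8 mice although its mean was higher. Adamts5 followed at 60.3 CPM per kilobase, below Timp2 and above Adamts2 (38.3) in 8 of 8 mice. From Loxl1 (35.4) through Mmp19 (27.4), Lox (21.3), Mmp28 (20.4), Mmp23 (19.9) and Mmp14 (18.7 CPM per kilobase), each gene exceeded the next in only 4 to 6 of 8 mice. Neighbours in that stretch did not separate. In CPM without length, 6 genes had a mean of at least 100, 14 lay between 10 and 100, 14 between 1 and 10, and 10 below 1.

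**Figure D1:**
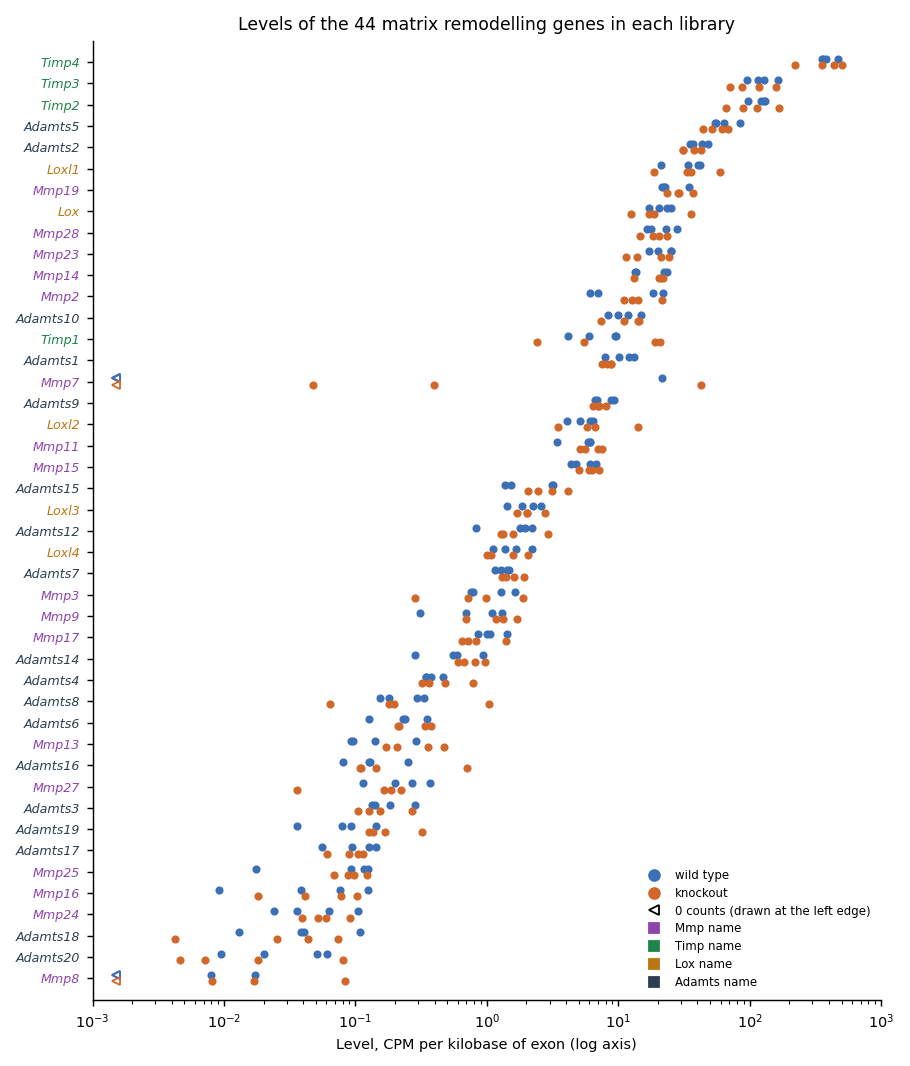
Level of each of the 44 genes in CPM per kilobase of exon (log axis), ordered by mean, with blue points for the 4 wild-type and orange points for the 4 knockout mice and open triangles for libraries at 0 counts. Timp4, Timp3 and Timp2 head the order, and Mmp7 spans the range from 0 counts to 42.5 CPM per kilobase.

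The comparison of genotypes asks which matrix remodelling transcripts differed when adipocytes lacked the targeted gene, and no gene of the set passed. With the quasi-likelihood test of edgeR, 0 of 40 tested genes reached an adjusted p of 0.05, where 0.0138% of all 14493 genes did, and the adjusted p of each of the 40 was 1.00. DESeq2 called 0 of 40, where it called 0.117% of all genes. It gave no adjusted p for Adamts17, Adamts19, Mmp13, Mmp16, Mmp24, Mmp25 and Mmp27, so these could not be called by it. An unadjusted p under 0.05 in edgeR was reached by 1 of 40, Adamts1, and by 2.23% of all genes. The genotypes did not overlap in 0 of 40 genes and in 1.44% of all genes. Of the 40, 23 had log2 fold changes above 0 and 17 below, beside 53.1% of all genes above 0. The median log2 fold change was 0.074 in the set and 0.011 in all genes, and that of the set was -0.061 without knockout mouse 1.

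These tests had limited precision, with a median standard error (SE) of 0.33 on the log2 scale in the set. The 95% interval of the log2 fold change ran from -0.58 to 0.50 for Timp4, from -0.80 to 0.39 for Timp3, from -0.62 to 0.23 for Adamts5 and from -0.54 to 0.12 for Adamts2. For rare genes it was wider, as for Adamts16 (-0.70 to 2.41) and Mmp27 (-1.92 to 0.64).

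**Figure D2:**
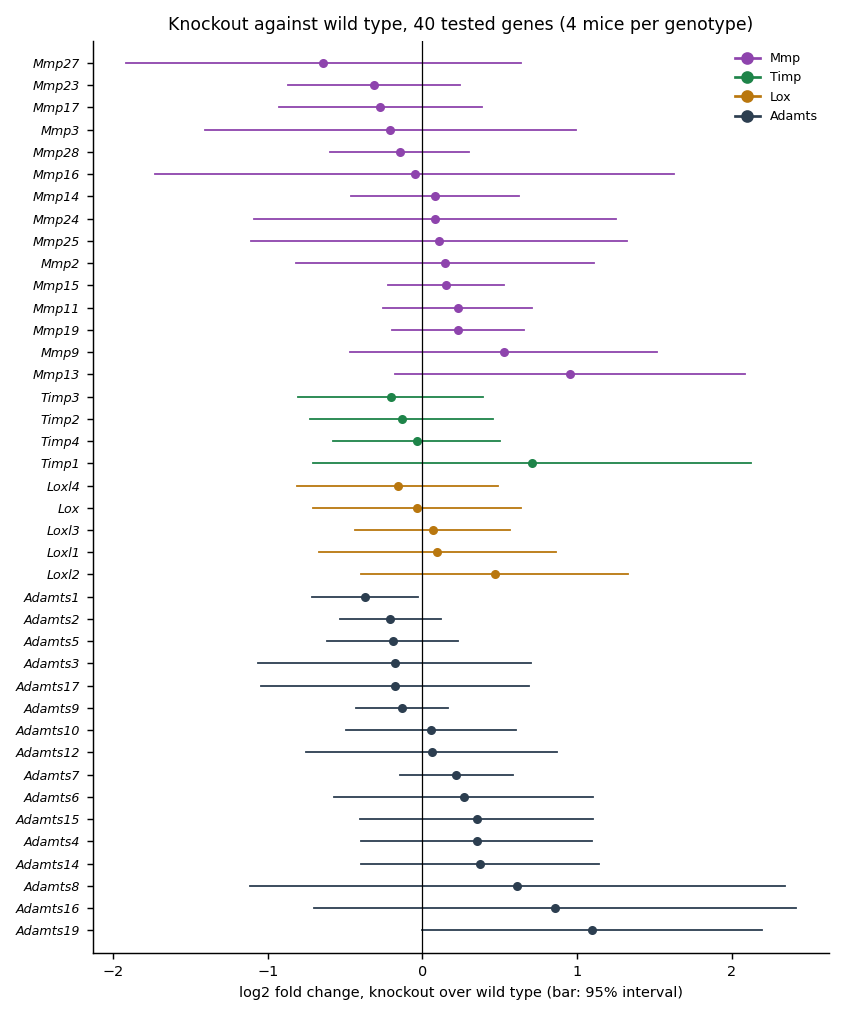
Log2 fold change of knockout over wild type for the 40 tested genes, grouped by family, with 95% intervals as bars (edgeR, 4 mice per genotype). The intervals of 39 genes cross 0, and that of Adamts1 ends at -0.030.

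Collagenases and gelatinases were low or varied widely between mice. Mmp13, the main interstitial collagenase of rodents, had 0.248, 0.255, 0.779 and 0.377 CPM in wild-type mice 1 to 4, against 0.455, 0.556, 0.947 and 1.27 CPM in knockout mice 1 to 4. These are 12 to 62 counts per library, and wild-type mouse 3 exceeded knockout mice 1 and 2, so the groups overlapped. Its log2 fold change was 0.95 (SE 0.50, unadjusted p = 0.0894 in edgeR), and 0.64 to 1.45 when 1 mouse was left out. Mmp8, the neutrophil collagenase, was at 0 to 2 counts in 7 libraries and at 10 in knockout mouse 4, and was not tested. The neutrophil genes S100a9, at 218 counts in that library and 4 to 30 in the others, and Retnlg, at 26 counts in that library and 0 to 2, were also highest there, while S100a8 was highest in wild-type mouse 3. Their part in the Mmp8 counts was not tested.

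Mmp2, the gelatinase of stromal cells, had 21.4, 18.6, 66.9 and 55.9 CPM in the wild-type mice, with knockout values of 65.2, 38.7, 33.8 and 42.7 CPM. Wild-type mice 1 and 2 were the lowest of all 8 and wild-type mouse 3 was the highest, so the range of wild type enclosed that of knockout (log2 fold change 0.15, SE 0.42). Macrophage markers summed to 411 and 496 CPM in wild-type mice 1 and 2 against 1325 and 1057 CPM in wild-type mice 3 and 4, and fibroblast and progenitor markers to 2027 and 2506 against 3202 and 2783 CPM. In knockout mice 1 to 4 the macrophage sums were 1241, 589, 688 and 2092 CPM. The fibroblast and progenitor sums there were 4587, 2205, 1861 and 2827 CPM. The part of these cells in the Mmp2 values was not tested. Mmp9, the gelatinase of myeloid cells, was at 0.980 to 4.06 CPM in wild-type and 2.18 to 5.35 CPM in knockout mice.

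Of 7 membrane-anchored enzymes, 4 had log2 fold changes above 0 and 3 below, with 3 to 5 above 0 when 1 mouse was left out. Mmp14, which activates the precursor of Mmp2 at the cell surface, had 34.6, 35.1, 60.6 and 58.1 CPM in the wild-type mice, with knockout values of 55.2, 53.1, 33.9 and 57.2 CPM. Its low libraries were wild-type mice 1 and 2 and knockout mouse 3, and its log2 fold change was 0.082 (SE 0.24). Mmp23, an enzyme anchored by its amino-terminal end, had 24.8, 29, 36.3 and 36.1 CPM in wild-type mice 1 to 4, against 30.6, 19.8, 16.5 and 34.7 CPM in knockout mice 1 to 4. Knockout mice 2 and 3 lay below every wild-type mouse and knockout mice 1 and 4 within the wild-type range (log2 fold change -0.31, SE 0.24, unadjusted p = 0.234 in edgeR). Mmp15 was at 18.7 to 28.96 CPM in wild-type and 21.5 to 30.7 CPM in knockout mice, and Mmp17 at 3 to 4.96 CPM in wild-type and 2.25 to 4.87 CPM in knockout mice. Mmp16 reached 0.569 CPM at most, Mmp24, which shares 635 exonic bases with BC029722, 0.451 CPM, and Mmp25 0.419 CPM.

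Mmp19 and Mmp28 are secreted enzymes outside the classical groups. Mmp19 had the highest mean per kilobase of the Mmp genes in the set, which leaves out Mmp12. Mmp28 exceeded Mmp23, the next, in only 4 of 8 mice. Mmp19 had 77.8, 119, 77.4 and 73.8 CPM in wild-type mice 1 to 4, against 98.8, 101, 80.9 and 127 CPM in knockout mice 1 to 4. Wild-type mouse 2 was far above the other wild-type mice and above knockout mice 1 to 3. The log2 fold change of Mmp19 was 0.23 (SE 0.19) and, without that mouse, 0.42, not past the threshold either way. Its counts are less certain, since 789 exonic bases are shared with Tmem198b. Mmp28 had 65.03, 53.5, 41.3 and 37.96 CPM in the wild-type mice, with knockout values of 33.98, 47.5, 54.6 and 42.6 CPM, and the groups covered much the same range. Mmp11, an enzyme of stromal fibroblasts, was at 7.69 to 13.8 CPM in wild-type and 11.4 to 16.99 CPM in knockout mice, and Mmp27 reached 0.608 CPM at most.

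Mmp7, or matrilysin, a small protease of glandular epithelia, was abundant in 1 mouse of each genotype. It was at 0, 0, 971 and 0 counts in wild-type mice 1 to 4 and at 0, 1813, 2 and 17 counts in knockout mice 1 to 4. Wild-type mouse 3 thus had 18.9 CPM and knockout mouse 2 37.3 CPM. A count of 0 allows up to 3 counts, or 0.0588 to 0.0628 CPM in the 4 libraries at 0, for counting error only. The gene was detected too unevenly to be tested.

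Some genes of a list of epithelial markers were high in the same pair of mice, and its keratin genes did not separate that pair from the rest. In wild-type mouse 3 and knockout mouse 2, the ciliogenesis factor Foxj1 had 7.97 and 26.1 CPM, with at most 0.287 CPM in the other 6. Epcam, an epithelial adhesion molecule, had 5.79 and 19.6 CPM in this pair and at most 0.491 CPM elsewhere, and Cuzd1 had 13.2 and 42.6 CPM and at most 1.45 CPM elsewhere. All 7 markers of ciliated and epididymal epithelium summed to 60.7 and 167 CPM in the pair and to 6.06 to 54.7 CPM in the other mice, where keratin genes Krt8 and Krt18 made up most of the sum. Krt8 was at 11.5 CPM in wild-type mouse 3 and 24.04 CPM in knockout mouse 2, against 1.93 to 29.5 CPM elsewhere, and Krt18 at 16.8 and 35.5 CPM against 3.06 to 24.5 CPM. The part of such tissue in the other results was not tested. Mmp3, stromelysin 1, in the same cluster as Mmp7, had 1.36, 2.96, 2.30 and 1.42 CPM in the wild-type mice, with knockout values of 3.38, 0.515, 1.28 and 1.78 CPM. Knockout mouse 2, the highest for Mmp7, was the lowest for Mmp3.

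**Figure D3:**
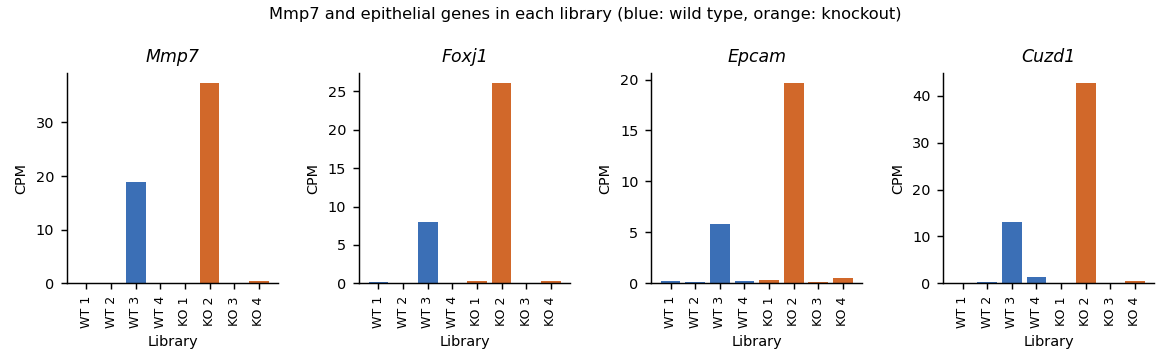
CPM of Mmp7, Foxj1, Epcam and Cuzd1 in each library, blue for wild type and orange for knockout, each panel with its own axis from 0. Wild-type mouse 3 and knockout mouse 2 carry nearly all of each signal, and knockout mouse 2 is the higher for all 4 genes.

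Of the 4 inhibitors, only Timp1 lay above 0 in log2 fold change and 3 lay below with all mice, and 1 or 2 genes lay above 0 when 1 mouse was left out. Timp4 had 504, 539, 508 and 665 CPM in wild-type mice 1 to 4, against 504, 314, 625 and 718 CPM in knockout mice 1 to 4. Knockout mouse 2 was the lowest of all 8 and knockout mouse 4 the highest, around group means of 554 ± 75.8 and 540.3 ± 174 CPM (SD, n = 4 each). Timp3, which binds to the matrix itself, had 767, 447, 598 and 546 CPM in the wild-type mice, with knockout values of 553, 333, 745 and 413 CPM, with a log2 fold change of -0.21 (SE 0.26). Wild-type mouse 1 was its highest library and knockout mouse 2 its lowest. Timp2, which takes part with Mmp14 in activating Mmp2, had 350.1, 439, 469 and 476 CPM in wild-type mice 1 to 4, against 604, 322, 239 and 415 CPM in knockout mice 1 to 4. Knockout mice gave both the highest and the lowest Timp2 values, and the group means were 433 ± 57.7 and 395 ± 157 CPM (SD, n = 4 each).

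Timp1, the inducible inhibitor, was the rarest of the 4 and the most variable. It had 3.67, 8.41, 8.51 and 5.36 CPM in wild-type mice 1 to 4, against 18.6, 4.92, 2.13 and 16.8 CPM in knockout mice 1 to 4. Knockout mice 1 and 4 lay above every wild-type mouse and knockout mouse 3 below every one, an 8.74-fold range over the 8 mice. The log2 fold change was 0.71 (SE 0.62), with a 95% interval from -0.70 to 2.12, and ran from 0.29 to 1.05 when 1 mouse was left out, the lowest without knockout mouse 1. Macrophage markers summed to 1241 and 2092 CPM in knockout mice 1 and 4, to 589 and 688 CPM in knockout mice 2 and 3, and to 411 to 1325 CPM in wild type, with 9 of 9 markers above 0 in log2 fold change and 0 past the threshold. With 1 mouse left out, 4 to 9 of the 9 were above 0, the fewest without knockout mouse 4. Their part in the Timp1 values was not tested.

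For 4 of 5 lysyl oxidase genes, knockout mouse 1 was the highest library. Loxl1, which acts on elastic fibres, had 70.97, 113, 139 and 134 CPM in wild-type mice 1 to 4, against 198, 119, 62.05 and 111 CPM in knockout mice 1 to 4. Knockout mice 1 and 3 gave its highest and lowest values (log2 fold change 0.10, SE 0.34). Lox, the founding member of the family, had 84.9, 61.9, 90.5 and 73.6 CPM in the wild-type mice, with knockout values of 129, 44.8, 61.9 and 67.9 CPM. Knockout mice 2 to 4 lay below wild-type mice 1, 3 and 4, and the log2 fold change of Lox was -0.035 (SE 0.30). Loxl2, which crosslinks collagen IV of basement membranes, had 26.7, 31.8, 33.1 and 20.97 CPM in wild-type mice 1 to 4, against 73.3, 18.1, 29.8 and 34.3 CPM in knockout mice 1 to 4. Its log2 fold change of 0.47 (SE 0.38) became -0.038 without knockout mouse 1, and that of Loxl1 became -0.24. Of the 5 lysyl oxidase genes, 3 lay above 0 with all mice, 0 without knockout mouse 1, and 5 without wild-type mouse 3 and knockout mouse 2. Loxl3, which shares 534 exonic bases with Htra2, was at 5.80 to 10.5 CPM in wild-type and 6.85 to 11.3 CPM in knockout mice, and Loxl4 at 6.01 to 12.1 CPM in wild-type and 5.43 to 11.2 CPM in knockout mice.

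Knockout mouse 1 was the highest of the 8 for 11 of the 40 tested genes, and the next was wild-type mouse 2 with 7. Besides Lox, Loxl1, Loxl2 and Loxl3, these were Timp1, Timp2, Mmp3, Adamts6, Adamts8, Adamts16 and Adamts19. Knockout mouse 1 also had the highest sum of fibroblast and progenitor markers, 4587 CPM against 1861 to 3202 CPM in the other 7. The matrix genes Col3a1 (1942 CPM) and Dcn (1252 CPM) made up most of it. Pi16, Col1a1, Col3a1, Dcn, Lum and Fbn1 were highest in knockout mouse 1. Pdgfra was not, at 33.4 CPM against 45.7 CPM in knockout mouse 3. Nor was Dpp4, at 103 CPM against 113 CPM in wild-type mouse 2. The mesothelial sum of knockout mouse 1, 882 CPM, was exceeded by wild-type mouse 2 at 996 CPM. The part of these cells in the values of knockout mouse 1 was not tested.

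**Figure D4:**
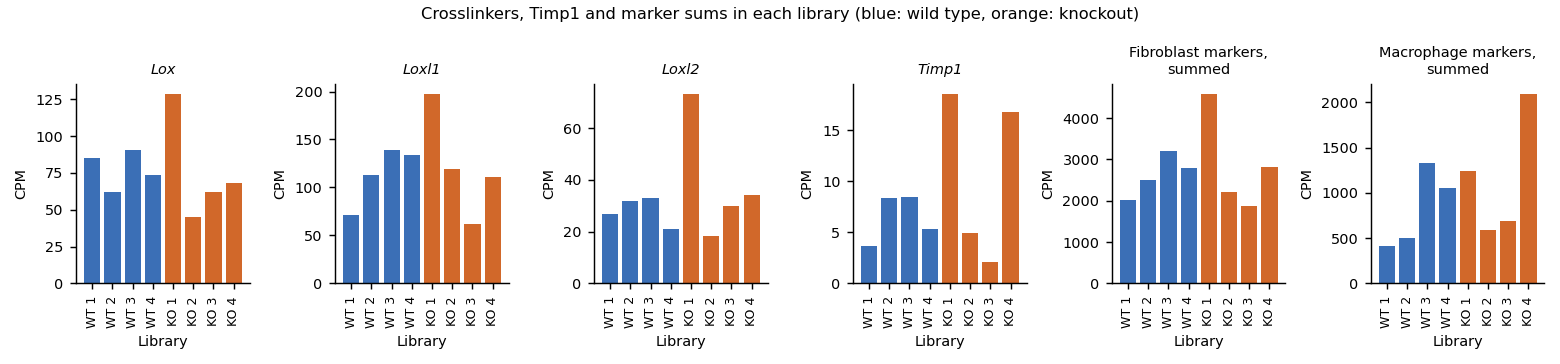
CPM of Lox, Loxl1, Loxl2 and Timp1 and summed CPM of fibroblast and macrophage markers in each library, blue for wild type and orange for knockout, each panel with its own axis from 0. Knockout mouse 1 is the highest for the 4 genes and for the fibroblast sum, and knockout mouse 4 is the highest for the macrophage sum.

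Proteoglycan-cleaving Adamts genes had 3 of 6 tested members above 0 and 3 below, with 2 to 3 of the 6 or 7 tested above 0 when 1 mouse was left out. Adamts1, which cuts versican and aggrecan, had the smallest p of the set. Its levels were 38.8, 49.2, 58.5 and 63.8 CPM in wild-type mice 1 to 4, against 43.4, 42.7, 39.8 and 36.7 CPM in knockout mice 1 to 4. Wild-type mice 2, 3 and 4 lay above all knockout mice while wild-type mouse 1 lay among them, and the group means were 52.6 ± 11 and 40.6 ± 3.08 CPM (SD, n = 4 each). The log2 fold change of -0.37 (SE 0.15, unadjusted p = 0.0361) did not pass over all genes in edgeR. The sum of smooth muscle and pericyte markers, unlike Adamts1, was lower in every knockout mouse than in any wild-type mouse. Of its 6 genes only Acta2 separated the genotypes. The part of these cells in the Adamts1 values was not tested. Adamts5, the aggrecanase with the highest level of its family, had 440.4, 678, 515 and 450.1 CPM in the wild-type mice, with knockout values of 496, 359, 416 and 554 CPM. Wild-type mouse 2 was its highest library and the groups overlapped (log2 fold change -0.19, SE 0.19).

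The other proteoglycan-cleaving genes were lower. Adamts9 was at 39.97 to 55.7 CPM in wild-type and 39.1 to 48.7 CPM in knockout mice, Adamts15 at 8.19 to 18.8 CPM in wild-type and 12.2 to 24.7 CPM in knockout mice, and Adamts4 at 1.25 to 1.71 CPM in wild-type and 1.19 to 2.88 CPM in knockout mice. Adamts8 was at 3.74 CPM in knockout mouse 1 and at 0.232 to 1.22 CPM in the other 7 mice. Adamts20, with 2 to 34 counts per library, was not tested.

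Adamts2, the main enzyme that removes the amino-terminal propeptide of fibrillar procollagens, had 133, 139, 181 and 161 CPM in wild-type mice 1 to 4, against 158, 116, 115 and 141 CPM in knockout mice 1 to 4. Knockout mice 2 and 3 lay below every wild-type mouse and the others within the wild-type range (log2 fold change -0.21, SE 0.14, unadjusted p = 0.184 in edgeR). Its relatives were far lower, Adamts14 at 1.49 to 4.81 CPM in wild-type and 3.13 to 4.99 CPM in knockout mice and Adamts3 at 1.03 to 2.18 CPM in wild-type and 0.800 to 2.06 CPM in knockout mice.

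Among the remaining genes, Adamts10, which is linked to fibrillin microfibrils, had 48.3, 34.3, 60.96 and 40.8 CPM in the wild-type mice, with knockout values of 45.3, 29.99, 58 and 58.4 CPM. Its groups overlapped, with the lowest value in knockout mouse 2 and the highest in wild-type mouse 3. Adamts19 had the largest log2 fold change of the set, 1.10 (SE 0.48, unadjusted p = 0.0502 in edgeR), on few counts. It was at 18, 34, 22 and 8 counts in wild type against 76, 31, 28 and 38 counts in knockout. Per library size, wild-type mouse 2 exceeded knockout mice 2 and 3, so the groups overlapped. Adamts16 was at 3.48 CPM in knockout mouse 1 and at 0.398 to 1.25 CPM in the others. Adamts12 was at 5.14 to 13.8 CPM in wild-type and 8 to 18.2 CPM in knockout mice, Adamts6 reached 1.80 CPM and Adamts17 0.859 CPM at most, and Adamts18, with 1 to 27 counts per library, was not tested.

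Adamts7, which cuts cartilage oligomeric matrix protein, lies on chromosome 9 at 90162978 to 90200102, 48157 bases from Morf4l1, a chromodomain gene that was 1 of the 2 past the threshold over all genes. Morf4l1 had 23.05 to 24.5 CPM in wild-type and 13.5 to 14.4 CPM in knockout mice (log2 fold change -0.76, SE 0.081, adjusted p = 0.0437 in edgeR), and 0 genes passed when any 1 mouse was left out. Adamts7 had 7.61, 6.84, 7.93 and 6.16 CPM in wild-type mice 1 to 4, against 7.46, 10.2, 8.59 and 6.98 CPM in knockout mice 1 to 4. Knockout mice 2 and 3 were above every wild-type mouse and knockout mice 1 and 4 within their range (log2 fold change 0.22, SE 0.16, unadjusted p = 0.208 in edgeR).

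**Figure D5:**
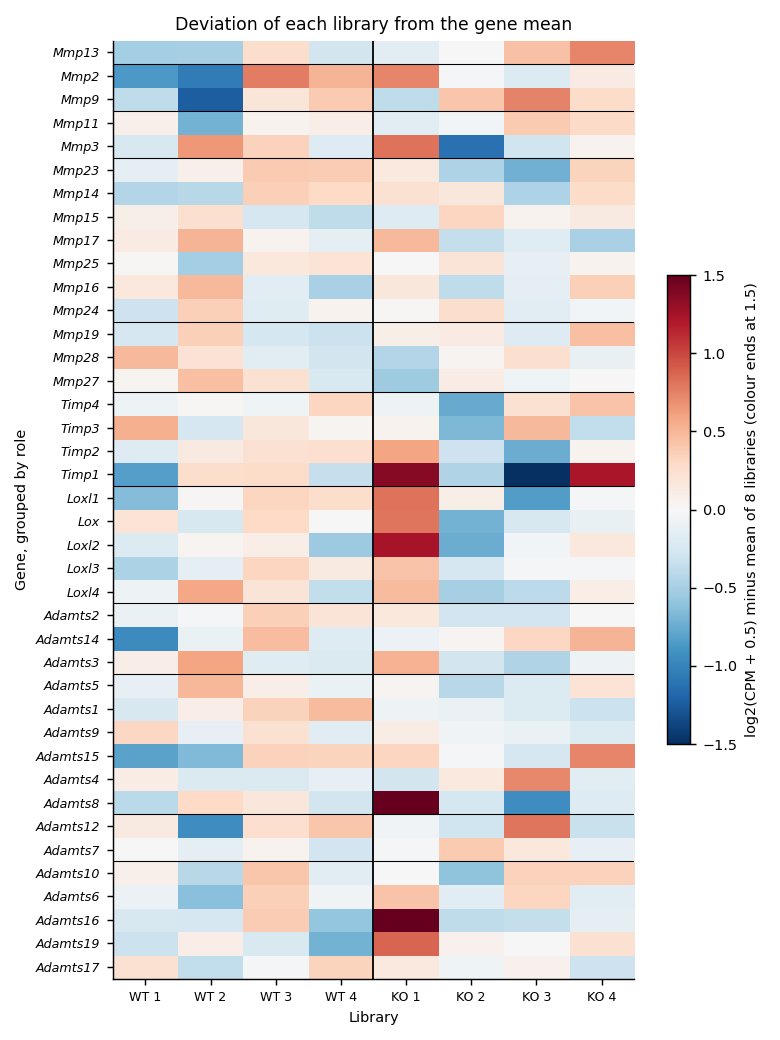
Deviation of each library from the gene's mean over all 8, on the log2(CPM + 0.5) scale, for the 40 tested genes grouped by role (red above the mean, blue below, wild type left of the line). Red cells of the lysyl oxidases, Timp1, Adamts8 and Adamts16 gather in knockout mouse 1, and no gene separates the genotypes.

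Substrates and partners of these enzymes were read in the same fit, and 0 of 51 tested passed in edgeR while 2 had an unadjusted p under 0.05, Col6a3 and Adam12, beside 2.23% of all genes. All 12 collagen and elastic fibre genes had log2 fold changes above 0 (median 0.17) with all mice, and without knockout mouse 1 this held for 3 of 12 (median -0.029). Leaving out any other single mouse gave 9 to 12 of 12. Col6a3, a collagen VI chain, had 97.4, 116, 166 and 97.6 CPM in wild-type mice 1 to 4, against 239.7, 163, 158 and 221 CPM in knockout mice 1 to 4. Wild-type mouse 3 exceeded knockout mice 2 and 3, and the log2 fold change was 0.71 (SE 0.21, unadjusted p = 0.00831 in edgeR). Of 7 tested proteoglycan and glycoprotein genes, 6 were above 0 (4 to 6 with 1 mouse left out), with biglycan (Bgn) at 0.61 (SE 0.29) and decorin (Dcn) at -0.21 (SE 0.22). The 9 tested protease activators and inhibitors split into 5 above 0 (3 to 6 with 1 mouse left out), led by plasminogen (Plg, 0.56, SE 0.55), and 4 below, led by the serine protease inhibitor gene Serpine2 (-0.39, SE 0.32). The 10 collagen processing partners split into 3 above (1 to 6 with 1 mouse left out), led by the lysyl hydroxylase Plod1 (0.16, SE 0.15), and 7 below, led by its relative Plod2 (-0.30, SE 0.21).

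Adam12, a membrane metalloproteinase of mesenchymal progenitors, was the 1 gene of these 51 whose genotypes did not overlap, where 1.44% of all genes did not. It had 20.98, 12.7, 18.4 and 13.99 CPM in wild-type mice 1 to 4, against 51.2, 28.4, 36.9 and 24.6 CPM in knockout mice 1 to 4. Every knockout mouse exceeded every wild-type mouse, with a log2 fold change of 1.09 (SE 0.25, unadjusted p = 0.00200 in edgeR). It did not pass in edgeR (adjusted p = 1.00) and passed in DESeq2 (adjusted p = 0.0335), with a range of adjusted p over the alternatives from that value to 1. Of the 13 Adamts-like and related genes in its list, 6 were above 0 and 7 below, with 5 to 9 above 0 when 1 mouse was left out and 10 without wild-type mouse 3 and knockout mouse 2. Adamtsl2, a secreted relative of the Adamts enzymes without a protease domain, had 8.31, 6.06, 18.1 and 5.74 CPM in the wild-type mice, with knockout values of 7.18, 3.73, 5.43 and 9.50 CPM. Wild-type mouse 3 was its highest library and the groups overlapped (log2 fold change -0.56, SE 0.42).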

How the data were processed

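Counts are raw, as the authors deposited them in 1 table for each mouse, listed by gene symbol. A merged exon annotation, also deposited, gave positions and exon lengths (union of exons). FastQC 0.11.2, mm10, STAR 2.4.0g1, Cufflinks, featureCounts and edgeR are listed in the submitters' processing notes without roles. The strand setting is not given in the sources used here, so reads of overlapping genes cannot be separated. No 2 libraries of a genotype agreed within sampling noise (smallest chi-square per degree of freedom 63).

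With edgeR 4.0.16 in R 4.3.3, filterByExpr left 14493 genes, libraries were scaled by trimmed mean of M values (factors 0.966 to 1.05), and genotypes were compared by the robust quasi-likelihood F test with Benjamini-Hochberg adjustment over all 14493. SE follows from the F statistic. The fit was tested on simulated data. Alternatives were DESeq2 1.42.0, limma 3.58.1 (voom), other scalings and filters, a replicate block and omission of mice. Members and lists were chosen with earlier results of these data known. Values per mouse are given for the 3 highest genes per kilobase of each family, the 3 smallest p-values in either direction, genes whose groups separate and genes set apart by 1 library or the epithelial pair; other genes given per mouse were picked after seeing their values. The gene targeted by the knockout is not reported here.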

Additional observations from a re-analysis of the deposited data

Results flagged for a closer look

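In 6 of 84 groups of 4 mice, 1 mouse lay far from the other 3, where chance gives about 1 in 20, or 4.2. Wild-type mouse 2 was high for Mmp19, at 119 CPM beside 73.8 to 77.8 CPM in its group. The same mouse was low for Mmp11, at 7.69 CPM beside 13.3 to 13.8 CPM. It was also low for Mmp25, at 0.0588 CPM beside 0.309 to 0.419 CPM, but on only 3 counts beside 15 to 20. Knockout mouse 3 was low for Mmp14, at 33.9 CPM beside 53.1 to 57.2 CPM. Knockout mouse 1 was high for Adamts16, at 3.48 CPM beside 0.535 to 0.716 CPM. It was low for Mmp27, at 0.0594 CPM beside 0.274 to 0.370 CPM, but on only 3 counts beside 13 to 18.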

How the results depend on the processing

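Across the 17 alternatives, the number of members past the threshold was 0. The number over all genes, 2, was also 2 with median-ratio size factors, a filter of 1 CPM in 4 libraries and non-robust dispersion, 17 with DESeq2, and 0 with limma voom, total-count scaling, no low-count filter, the replicate block and without wild-type mouse 3 and knockout mouse 2. It was 0 to 0 with each mouse left out in turn. Replicate numbers did not pair the mice: deviations of same-numbered mice correlated at -0.287 to 0.083, and 0 of 4 wild-type mice correlated best with their own number. Under the block the log2 fold changes of Mmp16 and Adamts8 became 0.081 and -0.092, with no call changed, and under voom 0.17 and -0.032. Of 40 tested members, 20 kept their sign in all alternatives. Without wild-type mouse 3 and knockout mouse 2, signs turned for Timp4 (0.11), Lox (0.23), Loxl4 (0.0037), Mmp24 (-0.34), Mmp16 (0.077), Mmp3 (0.17) and Adamtsl2 (0.14). Over omissions of 1 mouse or that pair, log2 fold changes of the genes whose sign turned ran as follows: Mmp28 -0.26 to 0.013, Timp4 -0.21 to 0.15, Timp2 -0.41 to 0.043, Loxl1 -0.24 to 0.32, Lox -0.42 to 0.23, Loxl2 -0.038 to 0.79, Adamts10 -0.063 to 0.39, Adamts16 -0.28 to 1.51, Mmp14 -0.040 to 0.23, Adamts12 -0.29 to 0.26, Mmp25 -0.23 to 0.33, Loxl4 -0.39 to 0.046, Mmp24 -0.34 to 0.55, Mmp16 -0.43 to 0.53, Adamts3 -0.53 to 0.10, Loxl3 -0.089 to 0.30, Adamts17 -0.39 to 0.013, Mmp2 -0.091 to 0.56, Mmp3 -0.75 to 0.17, Adamts8 -0.70 to 0.96, Adamtsl2 -0.82 to 0.14 and Plg -0.090 to 0.81. The cause was not tested. Without knockout mouse 1, 18 of 42 tested members were above 0, against 23 of 40 with all mice. Of 10 members under 1 CPM, 7 were tested, on few counts.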
